A study of Mus musculus with 2 samples.

Results

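Class II-low tumour cells are the 4T1 mammary carcinoma cells that held few transcripts of the classical MHC class II genes H2-Aa and H2-Eb1. They numbered 368 of 12018 cells measured in primary tumours of female BALB/c mice, in which 4T1 cells had been implanted at 8 weeks of age. The 2 samples were 2 BD Rhapsody cartridges, each carrying 2 treatment arms told apart by sample tags. The anti-PD-1 pool (tags 3 and 4) held cells of mice given anti-PD-1 antibody alone and of mice given anti-Siglec-E together with anti-PD-1. The no-anti-PD-1 pool (tags 1 and 2) held cells of mice given isotype control antibody and of mice given anti-Siglec-E antibody alone. The labels do not tie a tag to an arm, so values are given by tag, and all mice carried the same tumour line. EPCAM-positive and EPCAM-negative cells had been mixed at a set ratio before loading, so the number of tumour cells among all cells was set in part by the experimenters. With 1 sample per group there was no replicate and no test: tags are not replicates, and cartridge and treatment cannot be told apart.

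The cells were chosen by measured values. A cell was kept when at least 5% of its molecules over the 396 genes counted in all tags were Lgals1, the transcript of galectin-1, and under 5% were S100a8, a transcript of neutrophils. It had no molecule of the T cell genes Cd3d, Cd3e and Cd3g, none of Il33 or Cd34, at most 2 of the macrophage genes C1qa and C1qb and at most 1 of Ccr2. These steps left 666 tumour cells, and those with under 1% of molecules from H2-Aa plus H2-Eb1 are the class II-low cells. The other 298 are called class II-high here. Of the class II-low cells, 76 carried tag 3, 35 tag 4, 203 tag 1 and 54 tag 2. Just inside the class II threshold, the nearest cells held 0.991% in tag 3, 0.996% in tag 4, 0.879% in tag 1 and 0.788% in tag 2. The nearest class II-high cells held 1.01% in tag 3, 1.06% in tag 4, 1.03% in tag 1 and 1.00% in tag 2. No class II-low cell shared a cell index with a class II-low cell of another tag.

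Of all cells, 6620 carried tag 3, 2430 tag 1, 1515 tag 2 and the rest tag 4, and a tag held 2993684 to 12416134 molecules. The median class II-low cell held 2410.5 molecules in tag 3 and 3330 in tag 4, against 3646 in tag 1 and 2899.5 in tag 2. Summed over the class II-low cells this gave 226656 and 114634 molecules in tags 3 and 4, against 803265 and 199199 in tags 1 and 2. Levels below are counts per 1000000 of these molecules (CPM), and intervals are exact 95% intervals that cover counting error only. As the panel amplifies each gene with its own primers, levels of different genes are not compared.

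MHC class II molecules present peptides to CD4 T cells. They are made constantly by dendritic cells, macrophages and B cells, while epithelial and tumour cells make them after exposure to interferon gamma, through the transactivator CIITA. H2-Aa and H2-Eb1 encode chains of the presenting molecules themselves, Cd74 encodes the invariant chain that guards the peptide groove, and H2-DMa and H2-DMb2 encode chains of the DM molecule that loads peptides. CIITA has no DNA contact of its own and acts through factors bound to a conserved promoter module, one part of which is the Y box, an inverted CCAAT letter string bound by NF-Y.

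The promoters of H2-Aa, H2-Eb1 and H2-DMb2 are shown because these class II genes define or separate the class II-low cells and share the Y box letters. Each sequence holds the 120 bases before the annotated start, from RefSeq on GRCm38.p6, with the letters TGATTGG in capitals. The reference strain may differ from BALB/c in this region. H2-Aa lies on the minus strand, at chr17:34287824-34287943. H2-Eb1 lies on the plus strand, at chr17:34305747-34305866. H2-DMb2 lies on the plus strand, at chr17:34145129-34145248.
H2-Aa: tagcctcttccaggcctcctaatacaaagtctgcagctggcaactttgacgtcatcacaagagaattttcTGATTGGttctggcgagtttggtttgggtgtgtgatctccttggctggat
H2-Eb1: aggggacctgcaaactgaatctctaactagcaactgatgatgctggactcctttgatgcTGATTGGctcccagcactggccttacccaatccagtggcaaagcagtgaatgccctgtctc
H2-DMb2: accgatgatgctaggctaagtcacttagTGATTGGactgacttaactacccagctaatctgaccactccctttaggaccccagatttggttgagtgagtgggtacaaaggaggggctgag
The capitals begin 50 bases before the start of H2-Aa, 61 before that of H2-Eb1 and 92 before that of H2-DMb2. TGATTGG or its complement CCAATCA was found in 5.15% of the 32851 promoter windows of this length, and in neither of the 2 listed starts of H2-DMa. A match describes letters in a window and does not show binding.

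In tags 2 to 4 the label of tumour cells held in the epithelial genes, whose levels did not decide which cells were kept. Epcam was also 1 of the 5 markers chosen for these cells. In tag 1, with 203 of the 368 class II-low cells, the epithelial genes were not counted, so the label could not be checked by them. Epcam, the epithelial adhesion molecule, was counted in tags 2 to 4 alone. It stood at 10720 CPM in tag 3 and 11160 in tag 4, against 7922 in tag 2, and at 82.1, 261 and 121 CPM in the S100a8-high cells of the same tags. In class II-high cells Epcam was higher than in class II-low cells in each of these tags, at 15000, 12260 and 14560 CPM in tags 3, 4 and 2, past 1.5-fold in tag 2 alone. S100a8-high cells are those with at least 20% of molecules from S100a8, and they stand here for cells that should lack epithelial genes. An Epcam molecule was seen in 69 of 76 class II-low cells of tag 3 (90.8%, 81.9 to 96.2%), in 30 of 35 of tag 4 (85.7%, 69.7 to 95.2%) and in 45 of 54 of tag 2 (83.3%, 70.7 to 92.1%). In S100a8-high cells the share was 4.53% in tag 3, 5.49% in tag 4 and 12.1% in tag 2, at median depths of 1770, 1830 and 1755 molecules, below the depths of the class II-low cells. E-cadherin (Cdh1) stood at 3181 and 2931 CPM in tags 3 and 4, against 2741 in tag 2. Mesothelin (Msln) stood at 3260 and 3210 CPM in tags 3 and 4, against 2957 in tag 2. At least 1 of the 3 epithelial genes was seen in 94.7% of class II-low cells of tag 3, 97.1% of tag 4 and 94.4% of tag 2.

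**Figure D1:**
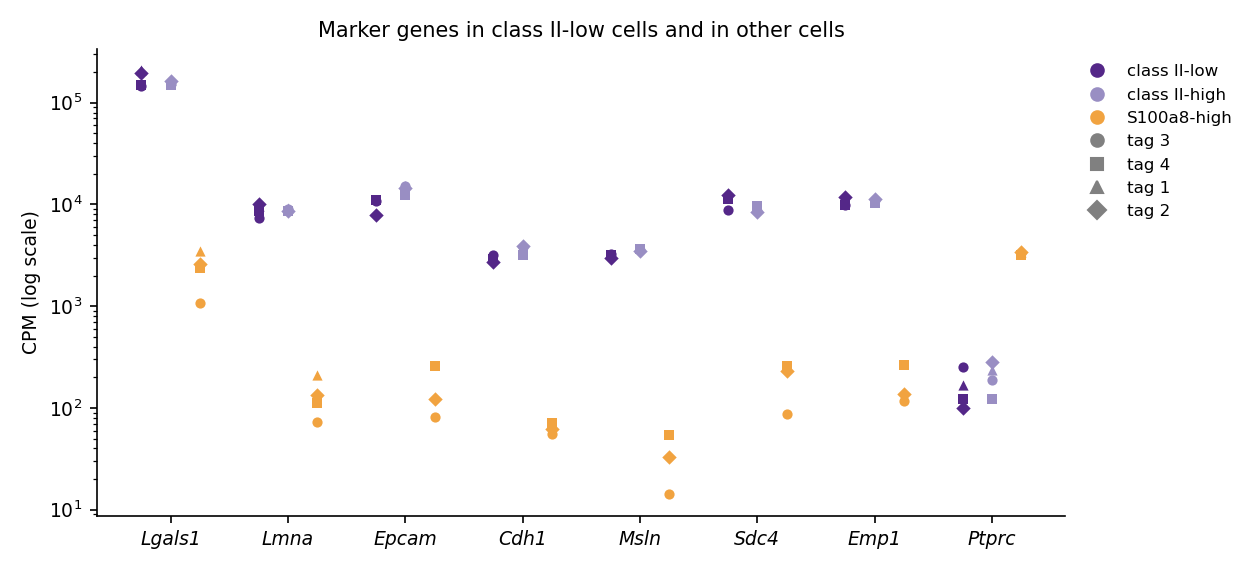
Levels of marker genes (CPM, log axis) in class II-low, class II-high and S100a8-high cells, 1 point per tag, with the tag shown by the shape of the point. Epcam, Cdh1, Msln, Sdc4 and Emp1 were not counted in tag 1. The epithelial genes are far lower in S100a8-high cells than in both tumour classes, and the leukocyte gene Ptprc is the reverse.

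Markers of other cell types were mostly far below their level in the cells that were not tumour cells, with the B cell list of tag 3 as an exception. The pan-leukocyte genes Ptprc and Cd52 summed to 357 and 140 CPM in tags 3 and 4, against 432 and 251 CPM in tags 1 and 2. In all cells that were not tumour cells the same sum was 10850 to 12500 CPM. The 6 neutrophil markers summed to 7871 and 8287 CPM in tags 3 and 4, against 11760 and 9809 CPM in tags 1 and 2, and to 229000 to 314400 CPM in the cells that were not tumour cells. The 8 macrophage or monocyte markers summed to 1222 and 1361 CPM in tags 3 and 4, against 2733 and 1893 CPM in tags 1 and 2, all of them above 0, and to 46770 to 53840 CPM in the other cells. Of the 8 T cell markers 4 were at 0 (Cd3d, Cd3e and Cd3g by the rule, and Foxp3), and the list summed to at most 39.7 CPM in any tag, with 1078 to 4672 CPM in the other cells. The 4 B cell markers summed to 185 and 17.4 CPM in tags 3 and 4, against 13.7 and 5.02 CPM in tags 1 and 2. In the other cells the same list was at 108 and 219 CPM in tags 3 and 4, against 68.4 and 137 CPM in tags 1 and 2, so that in tag 3 it was higher in class II-low cells. The 3 dendritic cell markers summed to 106 and 17.4 CPM in tags 3 and 4, against 37.4 and 35.1 CPM in tags 1 and 2. The 4 natural killer cell markers summed to 110 and 0 CPM in tags 3 and 4, against 285 and 75.3 CPM in tags 1 and 2. They were at 1823 and 3683 CPM in the other cells of tags 3 and 4, against 755.5 and 1366 CPM in those of tags 1 and 2. The mast or basophil list stayed at or below 8.72 CPM and the stromal and endothelial list at or below 49.8 CPM in every tag.

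Lgals1, H2-K1, Fth1 and Spp1 each gave a large share of the panel molecules of class II-low cells. Lgals1, a rule gene, made up a median of 11.7% and 13.5% of the molecules of a cell in tags 3 and 4, against 22.1% and 21.3% in tags 1 and 2. H2-K1, a classical class I gene whose reads could be shared with related class I genes, stood at 122800 and 145800 CPM in tags 3 and 4, against 89100 and 101600 CPM in tags 1 and 2. Fth1, the ferritin heavy chain that stores iron, stood at 140400 and 126800 CPM in tags 3 and 4, against 79330 and 82140 CPM in tags 1 and 2. Spp1, the secreted matrix protein osteopontin, varied widely between cells: in tag 3 the median cell held 2.75% Spp1 and the highest 30.4%, while 8 of 76 cells held none. Fibronectin (Fn1) behaved in a like way, with a median of 2.74% and a maximum of 31.3% in tag 3. The nuclear lamina gene Lmna stood at 7302 and 8601 CPM in tags 3 and 4, against 9623 and 10060 CPM in tags 1 and 2, and at 8585 to 9195 CPM in class II-high cells.

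The balance between class II-low and class II-high tumour cells differed between the pools. Class II-low cells made up 36.5% of tumour cells in tag 3 (29.99 to 43.5%) and 25.2% in tag 4 (18.2 to 33.2%). They made up 86.4% in tag 1 (81.3 to 90.5%) and 64.3% in tag 2 (53.1 to 74.5%). The pool means were 30.9% in the anti-PD-1 pool and 75.3% in the no-anti-PD-1 pool, a ratio of 0.41, and the tags of the pools did not overlap. This share was chosen after the data had been seen. Epcam was lower in class II-low than in class II-high cells in the 3 tags that counted it, and the part of the mixing by EPCAM in the share was not tested. As a share of all cells, class II-low cells were 1.15% (0.906 to 1.43%) in tag 3 and 2.41% (1.68 to 3.33%) in tag 4. In the no-anti-PD-1 pool they were 8.35% (7.28 to 9.53%) of all cells in tag 1 and 3.56% (2.69 to 4.62%) in tag 2. The pool means were 1.78% in the anti-PD-1 pool and 5.96% in the no-anti-PD-1 pool, a ratio of 0.298, which was 0.499 without tag 1 and 0.193 without tag 4. Tumour cells as a whole took 3.14% and 9.57% of cells in tags 3 and 4, against 9.67% and 5.54% in tags 1 and 2, which overlap.

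**Figure D2:**
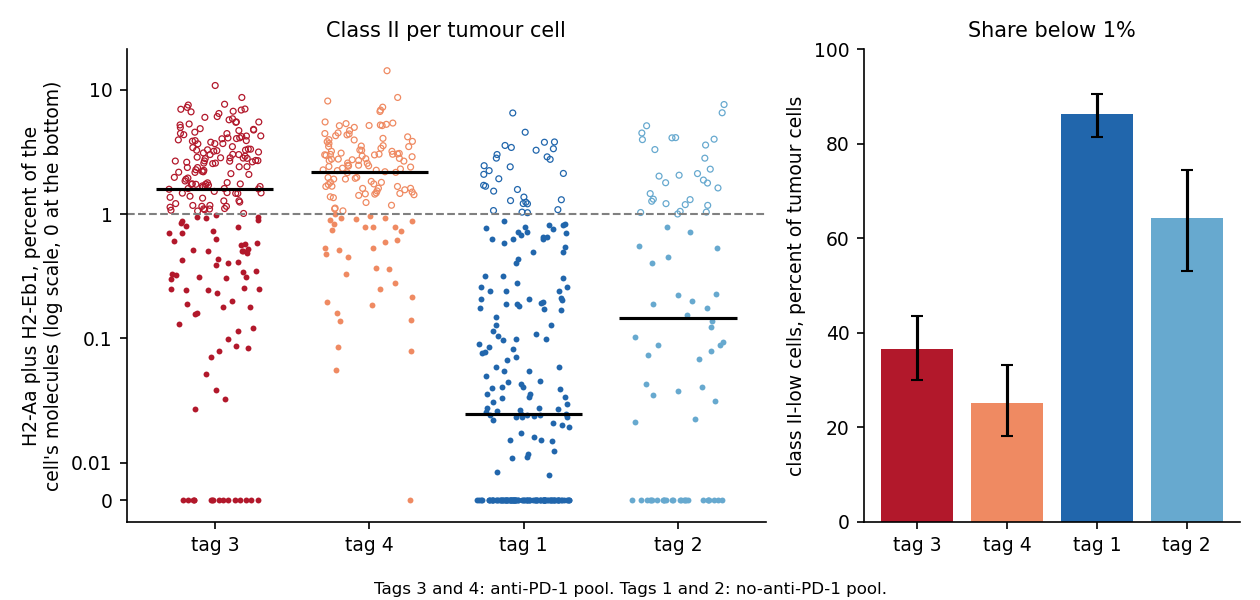
Left, H2-Aa plus H2-Eb1 as percent of each tumour cell's molecules (log axis, cells with none drawn at the bottom), 1 point per cell, filled for class II-low and open for class II-high cells. Black bars are medians over all tumour cells of the tag and the dashed line is the 1% threshold. Right, class II-low cells as percent of tumour cells with exact 95% intervals: 36.5% and 25.2% in tags 3 and 4, against 86.4% and 64.3% in tags 1 and 2.

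The threshold cut a continuous range, and where a cell lay below it also differed by pool. The median tumour cell held 1.61% class II in tag 3 and 2.19% in tag 4, against 0.0245% in tag 1 and 0.146% in tag 2. Within 0.25 percentage points of the 1% threshold, on both sides together, lay 22 tumour cells in tag 3, 16 in tag 4, 14 in tag 1 and 8 in tag 2. Among class II-low cells, 16 of 76 (21.1%) in tag 3 and 1 of 35 (2.86%) in tag 4 had no H2-Aa or H2-Eb1 molecule at all. In the no-anti-PD-1 pool 95 of 203 (46.8%) in tag 1 and 26 of 54 (48.1%) in tag 2 had none. These values use the genes of the rule and are given as a description.

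Within class II-low cells the residual class II levels were as follows, again as a description. H2-Aa stood at 2559 and 3210 CPM in tags 3 and 4, against 901 and 1074 CPM in tags 1 and 2. H2-Eb1 stood at 1257 and 1762 CPM in tags 3 and 4, against 185 and 341 CPM in tags 1 and 2. In S100a8-high cells H2-Eb1 was at 276 and 238 CPM in tags 3 and 4, against 145 and 121 CPM in tags 1 and 2, so that the class II-low cells of tag 1 were near this background for H2-Eb1.

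The ratio of H2-Eb1 to H2-Aa molecules differed between the cartridges in every population examined. It was 0.491 and 0.549 in class II-low cells of tags 3 and 4, against 0.206 and 0.318 in those of tags 1 and 2. In class II-high cells it was 0.602 and 0.649 in tags 3 and 4, against 0.331 and 0.382 in tags 1 and 2. In S100a8-high cells it was 0.48 and 0.481 in tags 3 and 4, against 0.279 and 0.197 in tags 1 and 2. In all remaining cells it was 0.508 and 0.499 in tags 3 and 4, against 0.311 and 0.307 in tags 1 and 2. The log2 ratio of H2-Eb1 between the pools was 2.52 in class II-low cells. It was 0.90 in class II-high, 0.95 in S100a8-high and 1.08 in all remaining cells, so a smaller difference was present there. For H2-Aa the log2 ratio was 1.55 in class II-low cells, and 0.09, -0.08 and 0.37 in the same other cells. The rule sums both genes, and the causes were not tested.

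Across the 217 genes with at least 30 molecules, 14 were higher (6.45%) and 31 lower (14.3%) in class II-low cells of the anti-PD-1 pool. A gene counted as higher when its lower value in tags 3 and 4 was 1.5-fold or more above its higher value in tags 1 and 2, and as lower in the reverse case. Tags of the pools did not overlap for 63.6% of genes (16.1% higher and 47.5% lower), so non-overlap alone says little here. With a single tag left out the rule spans fewer tags, and 20 to 29 genes were then higher and 38 to 55 lower. The median log2 ratio of all measured genes was -0.25, and some ratios below are also given relative to that median. The minimum of 30 molecules was summed over the tags, and tag 1 held the most molecules. A gene could thus reach the minimum through the no-anti-PD-1 pool alone. With a minimum of 1 molecule, 15 of 343 genes were higher and 31 lower, and the median log2 ratio was 0.15. The shares and the median thus depend on the minimum.

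**Figure D3:**
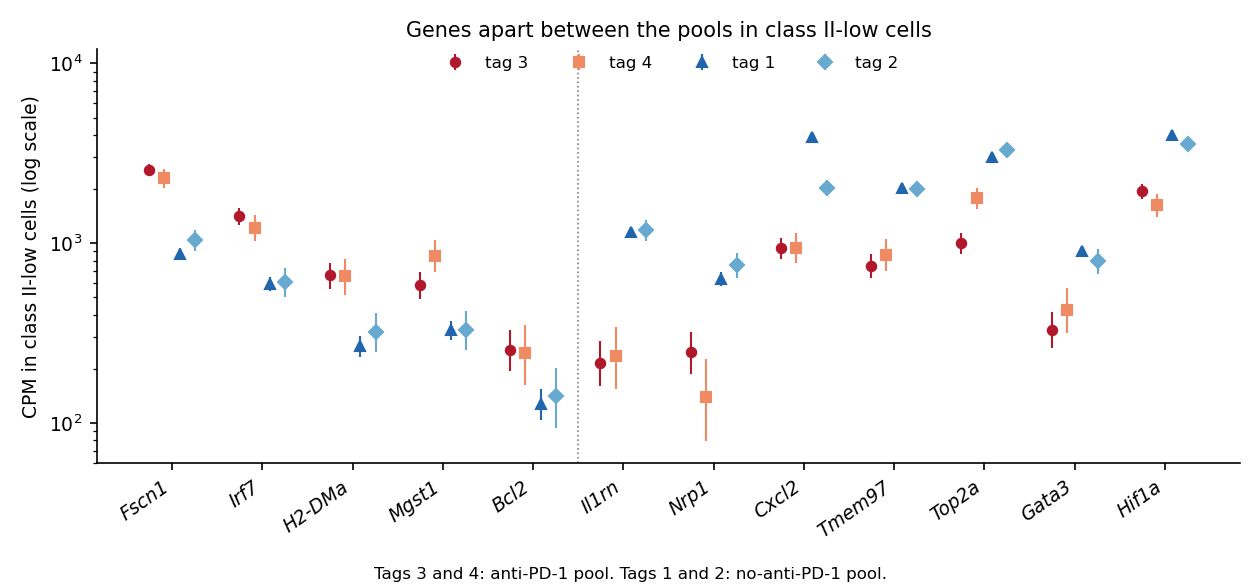
Levels of 12 genes past the rule in class II-low cells (CPM, log axis) in each tag, with exact Poisson 95% intervals. Genes left of the dotted line are higher and genes right of it lower in the anti-PD-1 pool (tags 3 and 4). Fscn1, at 2559 and 2303 CPM in tags 3 and 4, and Tmem97, at 746 and 864 CPM, show tags that lie close together within each pool.

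Among genes higher in the anti-PD-1 pool, Fscn1, which encodes the actin-bundling protein fascin, stood at 2559 CPM in tag 3 (2355 to 2776) and 2303 in tag 4 (2034 to 2598). It stood at 874 CPM in tag 1 (810 to 941) and 1039 in tag 2 (902 to 1191), a log2 ratio of 1.35, or 1.60 relative to the median gene. Class II-high cells showed Fscn1 at 2393 and 2409 CPM in tags 3 and 4, against 803 and 752 CPM in tags 1 and 2. It was thus apart between the pools in both tumour classes, and it also passed the rule at trace levels in S100a8-high cells.

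Irf7, a transcription factor of the type I interferon response, stood at 1412 CPM in tag 3 and 1221 in tag 4, against 595 in tag 1 and 607 in tag 2, a log2 ratio of 1.13. It passed the rule in class II-high cells as well, at 1222 and 1359 CPM in tags 3 and 4, against 723 and 694 CPM in tags 1 and 2. In S100a8-high cells it stood at 1493 and 1655 CPM in tags 3 and 4, against 1261 and 1184 CPM in tags 1 and 2, under the 1.5-fold limit.

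H2-DMa, which the rule did not use, stood at 662 and 654 CPM in tags 3 and 4, against 268 and 321 CPM in tags 1 and 2, a log2 ratio of 1.16. In class II-high cells the tags of the pools overlapped, at 2940 and 3113 CPM in tags 3 and 4, against 2606 and 3366 CPM in tags 1 and 2. H2-DMa is not independent of the rule: in tags 3, 1 and 2 it was lower in class II-low cells with no H2-Aa or H2-Eb1 molecule. Such cells were 21.1% and 2.86% of class II-low cells in tags 3 and 4, against 46.8% and 48.1% in tags 1 and 2. The call stayed when they were left out, and the part of the rule in it was not tested. Mgst1, a microsomal glutathione transferase, stood at 587 and 855 CPM in tags 3 and 4, against 329 and 331 CPM in tags 1 and 2. In class II-high cells Mgst1 had the reverse order. It stood there at 760 and 571 CPM in tags 3 and 4, against 803 and 781 CPM in tags 1 and 2. The anti-apoptotic gene Bcl2 stood at 256 and 244 CPM in tags 3 and 4, against 127 and 141 CPM in tags 1 and 2. In class II-high cells the pools overlapped for Bcl2. It stood there at 208 and 179 CPM in tags 3 and 4, against 139 and 241 CPM in tags 1 and 2. The call of Mgst1 was lost under 3 alternatives and that of Bcl2 under 4. Means over cells and a higher Lgals1 minimum were among them for both genes. Fth1 passed narrowly, with its nearest tags 1.54-fold apart.

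The other genes called higher rest on fewer cells or molecules. A single cell gave 59.5% of the molecules of the B cell gene Cd79a, and a single cell 31.5% of those of Cxcl9, an interferon-induced ligand of CXCR3. Tnfrsf9, the costimulatory receptor 4-1BB, stood at 291 and 593 CPM in tags 3 and 4, against 172 and 176 CPM in tags 1 and 2, with 15.3% from 1 cell. Irf3, Fam129c and Tnfsf10 stayed under 130 CPM in all tags. H2-Aa and H2-Eb1 complete the 14 and belong to the rule.

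Lower in the anti-PD-1 pool were Tmem97, Hif1a, Nrp1, Gata3 and Top2a, among others. Tmem97, the sigma-2 receptor of sterol handling, stood at 746 CPM in tag 3 (637 to 867) and 864 in tag 4 (702 to 1051). It stood at 2018 CPM in tag 1 and at 1811 to 2210 CPM (the interval of 399 molecules) in tag 2, a log2 ratio of -1.32, or -1.07 relative to the median gene. In class II-high cells Tmem97 stood at 1137 and 1139 CPM in tags 3 and 4, against 1377 and 1736 CPM in tags 1 and 2, in the same order but under the limit.

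Hif1a, the oxygen-regulated transcription factor, stood at 1946 and 1623 CPM in tags 3 and 4, against 4026 and 3564 CPM in tags 1 and 2, a log2 ratio of -1.09. It stood in the same order in S100a8-high cells, at 2634 and 2510 CPM in tags 3 and 4, against 3993 and 3829 CPM in tags 1 and 2. Nrp1, a coreceptor of semaphorins and VEGF, stood at 247 and 140 CPM in tags 3 and 4, against 632 and 753 CPM in tags 1 and 2, a log2 ratio of -1.84. Gata3, a transcription factor of luminal mammary cells and of T cells, stood at 331 and 427 CPM in tags 3 and 4, against 900 and 798 CPM in tags 1 and 2. Gata3 passed the rule in class II-high cells too, at 400 and 404 CPM in tags 3 and 4, against 941 and 704 CPM in tags 1 and 2, and at trace levels in S100a8-high cells.

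Il1rn, the interleukin 1 receptor antagonist, stood at 216 and 236 CPM in tags 3 and 4, against 1154 and 1180 CPM in tags 1 and 2, with the nearest tags 4.9-fold apart. Neutrophils express it strongly, and in S100a8-high cells it stood at 6175 and 5791 CPM in tags 3 and 4, against 10050 and 10380 CPM in tags 1 and 2. The chemokine Cxcl2, a ligand of CXCR2, stood at 940 and 942 CPM in tags 3 and 4, against 3880 and 2033 CPM in tags 1 and 2. In S100a8-high cells Cxcl2 had the same order without a call, at 22300 and 19830 CPM in tags 3 and 4, against 30550 and 34490 CPM in tags 1 and 2. In class II-high cells and in all remaining cells the pools overlapped for Cxcl2. Of the same family Cxcl1 stood at 13060 and 7424 CPM in tags 3 and 4, against 16540 and 30390 CPM in tags 1 and 2, with the nearest tags 1.27-fold apart and so not called. Csf1, the macrophage growth factor, stood at 490 and 349 CPM in tags 3 and 4, against 776 and 974 CPM in tags 1 and 2.

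Of the marker lists of other cell types, the neutrophil list had 4 genes measured (S100a8 of the rule among them) and 0 called (median log2 ratio -0.42), beside 14.3% lower among all genes. Of macrophages or monocytes 3 were measured and 1 was lower, Arg1 (median -1.93). Of natural killer cell markers 3 were measured and 1 was lower, Eomes, whose own ratio is the list's median of -1.23. Eomes was at 0 in tag 4, where the floor was used. Its call was lost under 6 alternatives, TMM scaling and means over cells among them. The B cell list had 1 measured gene, Cd79a, which was higher (3.14). The dendritic, pan-leukocyte and stromal lists had no call. Other genes called lower were Itgam, Ccl3, Ccl6, Ccl9, Fcgr3, Trem1, Clec4d, Nlrp3, Tnf, Tlr4 and F13a1. The call of Ccl3 was lost under 10 alternatives, Tlr4 under 7, Nlrp3 under 5, and the others under at most 4. Nlrp3 stood at 8.82 and 8.72 CPM in tags 3 and 4, against 42.3 and 15.1 CPM in tags 1 and 2. A single cell gave 64.8% of Ccl9, 39.0% of Arg1 and 45.3% of Ccl6 molecules. Cells with over 5 molecules of 8 leukocyte genes, Arg1 and Itgam among them, were 16 of 76 (21.1%) in tag 3 and 2 of 35 (5.71%) in tag 4, against 67 of 203 (33.0%) in tag 1 and 17 of 54 (31.5%) in tag 2. Without these cells 31 genes were again lower, of which 19 were among the first 31, and 13 were higher, of which 10 were among the first 14. Nrp1, Tmem97, Hif1a, Gata3, Il1rn and Cxcl2 stayed past the rule without them, as did Itgam, Ccl6, Ccl9, Fcgr3, Trem1, Clec4d, Tnf and F13a1. Arg1, Ccl3, Tlr4, Csf1, Top2a and Tyms did not, and Nlrp3 was no longer measured. This alternative was chosen after the data had been seen, and the part of leukocyte RNA or doublets in the remaining differences was not tested.

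The pool contrast was also read in the other cells with the same rule. Of the 14 genes called higher, 3 were called in class II-high cells (Fscn1, H2-Eb1 and Irf7), where 3.47% of 202 genes were called higher. In S100a8-high cells 2 were called higher (Fscn1 and H2-Eb1), against 8.31% of 325 genes. Of the 31 called lower, 3 were called in class II-high cells (Arg1, Gata3 and Itgam), against 2.48% of genes, and 3 in S100a8-high cells (Gata3, Il18 and Il1rn), against 6.46%. The class II-high sums rest on 132 and 104 cells in tags 3 and 4 and on 32 and 30 cells in tags 1 and 2.

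Of 7 measured genes of the cell cycle list, the rule called 2 lower (Top2a and Tyms) and 0 higher between the pools, beside 14.3% lower and 6.45% higher of all 217 genes. Both calls were lost without the cells with leukocyte genes, and that of Tyms also under TMM scaling and in cells with a class II molecule. The list's median log2 ratio was -0.86, beside -0.25 for all measured genes. Top2a, the topoisomerase of dividing cells, stood at 1002 CPM in tag 3 (876 to 1141) and 1780 in tag 4 (1544 to 2041), against 3021 in tag 1 (2902 to 3144) and 3288 in tag 2 (3041 to 3550). Pcna, the sliding clamp of DNA replication, stood at 2007 and 2242 CPM in tags 3 and 4, against 4426 and 3273 CPM in tags 1 and 2, with the nearest tags 1.46-fold apart. Tyms, thymidylate synthase, stood at 719 and 733 CPM in tags 3 and 4, against 1564 and 1160 CPM in tags 1 and 2.

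As class II-low cells of tags 1 and 4 were deeper, shares of cells with a molecule were read after each cell had been thinned to 500 molecules. This left out 7 cells of tag 3 and none of tag 4, and 6 of tag 1 and 5 of tag 2. Top2a was then seen in 14.5% of cells in tag 3 (7.17 to 25%) and 25.7% in tag 4 (12.5 to 43.3%). It was seen in 32.5% in tag 1 (26.0 to 39.5%) and 30.6% in tag 2 (18.3 to 45.4%). Without thinning the shares were 27.6% and 40.0% in tags 3 and 4, against 57.1% and 59.3% in tags 1 and 2. In S100a8-high cells, thinned alike, Top2a was seen in 1.72% and 1.57% in tags 3 and 4, against 0.676% and 1.62% in tags 1 and 2.

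For Top2a and Pcna the intervals of tags 3 and 1 did not overlap and those of the other tags of opposite pools did, and for Mki67 and Ube2c all overlapped. Pcna was seen in 47.8% of thinned cells in tag 3 and 62.9% in tag 4, against 73.6% in tag 1 and 67.3% in tag 2. In S100a8-high cells Pcna was seen in 9.42% and 9.39% in tags 3 and 4, against 16.7% and 16.4% in tags 1 and 2, in the same order as in class II-low cells. Mki67 was seen in 14.5% and 20% in tags 3 and 4, against 22.8% and 22.4% in tags 1 and 2. Ube2c was seen in 17.4% and 28.6% in tags 3 and 4, against 24.4% and 28.6% in tags 1 and 2. At least 1 of the 4 genes was seen in 56.5% and 74.3% of class II-low cells of tags 3 and 4, against 82.2% and 75.5% in tags 1 and 2.

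**Figure D4:**
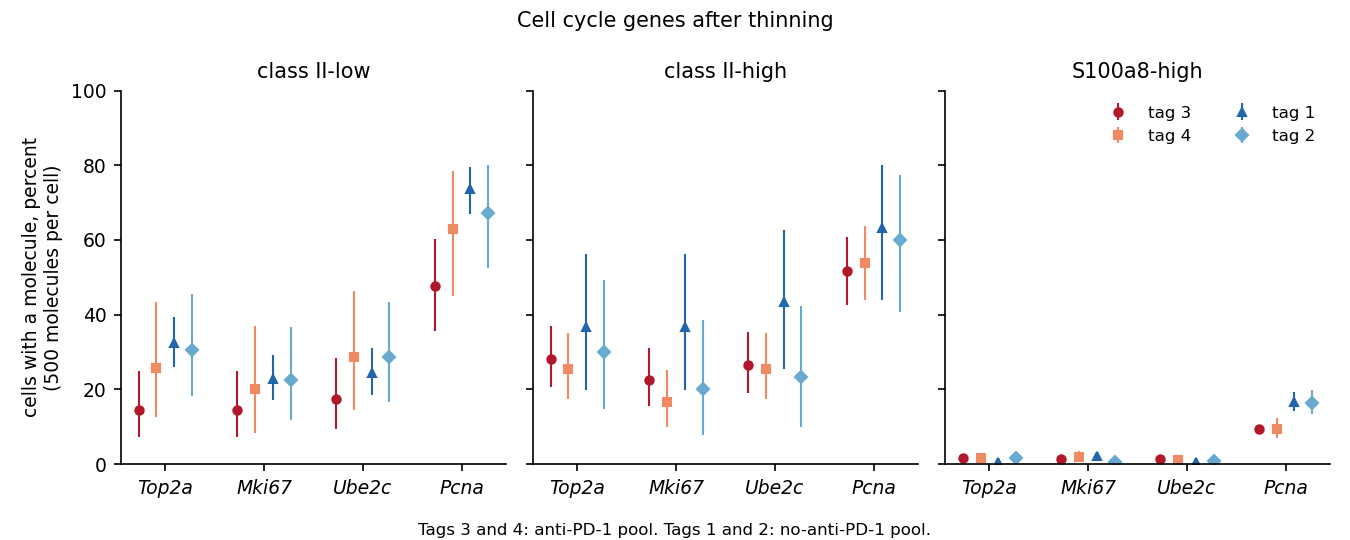
Percent of cells with at least 1 molecule of each cell cycle gene after thinning to 500 molecules per cell, by tag, with exact 95% intervals, in class II-low, class II-high and S100a8-high cells. Top2a in class II-low cells is at 14.5% and 25.7% in tags 3 and 4 and at 32.5% and 30.6% in tags 1 and 2. S100a8-high cells are near 0 for Top2a, Mki67 and Ube2c.

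Within the tags, class II-low cells differed from class II-high cells in few genes beyond those of the rule. Of 229 measured genes that the rule did not use, 0 were at least 1.5-fold higher (0%) and 8 were at least 1.5-fold lower (3.49%) in class II-low cells in each of the 4 tags. Among the 8 were 4 further class II genes (H2-Ab1, H2-DMa, H2-DMb2 and Cd74) and also Il12rb1, Cxcl9 and Casp1. The 4 class II genes are not independent of a rule that cuts on H2-Aa and H2-Eb1. The part of the rule in their calls was not tested. The median log2 ratio over the 229 genes was -0.01.

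H2-DMa stood at 662 and 654 CPM in class II-low cells of tags 3 and 4, and at 268 and 321 CPM in those of tags 1 and 2. The class II-high cells held 2940, 3113, 2606 and 3366 CPM in tags 3, 4, 1 and 2, and the mean log2 ratio was -2.77. Cd74 stood at 146, 279, 98.4 and 126 CPM in class II-low cells of tags 3, 4, 1 and 2, against 789, 920, 753 and 646 CPM in class II-high cells. H2-Ab1 and H2-DMb2 were near the limit of detection in class II-low cells, at up to 17.4 and 8.82 CPM. The class II-high cells held 61.8 to 116 CPM of H2-Ab1 and 9.91 to 169 CPM of H2-DMb2, whose reads could be shared with its close copy H2-DMb1. H2-DMb2 rested on 5 molecules in class II-low and 93 in class II-high cells. Its call was lost with Lgals1 of at least 10% and without the cells with leukocyte genes.

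Il12rb1, the chain shared by the receptors of interleukins 12 and 23, is known from T and NK cells. In class II-low cells it stood at 70.6 and 87.2 CPM in tags 3 and 4 and at 51.0 and 50.2 CPM in tags 1 and 2. In class II-high cells it stood at 415 and 463 CPM in tags 3 and 4 and at 268 and 241 CPM in tags 1 and 2. The log2 ratios of -2.56, -2.41, -2.39 and -2.26 in tags 3, 4, 1 and 2 lay closer together than those of any class II gene of the 8. T cell markers cannot be compared through Cd3 genes here, since the rule required them to be 0 in both classes.

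Casp1, the inflammasome protease, stood at 856, 532, 784 and 472 CPM in class II-low cells of tags 3, 4, 1 and 2, against 1505, 1201, 1199 and 1813 CPM in class II-high cells. Its mean log2 ratio was -1.14, tag 1 passed narrowly at -0.61, and the call was lost under 5 alternatives. Cxcl9 had a mean log2 ratio of -1.87. It stood at 384, 576, 223 and 120 CPM in class II-low cells of tags 3, 4, 1 and 2. In class II-high cells it stood at 1012, 1559, 337 and 1977 CPM. Tag 1 passed narrowly at -0.60. The call was lost under 7 alternatives, among them means over cells and leaving out the cells with leukocyte genes.

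The growth factor Csf2 missed the rule through tag 4. It stood at 746, 1090, 883 and 1094 CPM in class II-low cells of tags 3, 4, 1 and 2, against 1702, 1547, 2130 and 2218 CPM in class II-high cells, a mean log2 ratio of -1.0. H2-K1 was not called: its log2 ratios were -0.49, -0.31, -0.72 and -0.49 in tags 3, 4, 1 and 2, below 0 in each and past 1.5-fold in tag 1 alone. Ifitm3 had ratios of -0.38, -0.28, -0.29 and -0.56. Lmna, with a mean log2 ratio of -0.01, and Pcna, with 0.23, did not separate the classes in 1 direction. Of 46 genes counted in tags 2 to 4, 0 were higher (0%) and 4 lower (8.70%) in class II-low cells in each of those tags: Aif1, Cfb, Fpr1 and the interferon-induced GTPase gene Gbp6. Aif1 rested on 7 molecules in class II-low and 36 in class II-high cells, with 44.2% of them from 1 cell, and Fpr1 on 6 and 26 molecules.

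**Figure D5:**
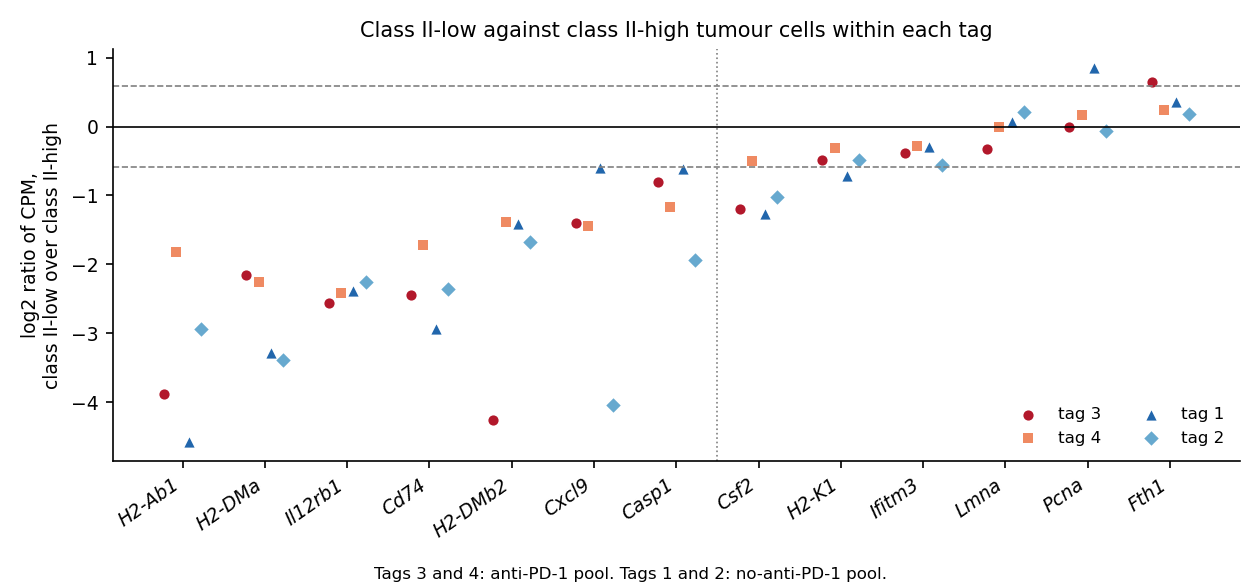
Log2 ratio of CPM in class II-low over class II-high tumour cells, by tag. The genes left of the dotted line are lower in class II-low cells in each tag, beyond the dashed lines that mark 1.5-fold, and the genes on the right are shown for comparison. Il12rb1 has ratios from -2.56 to -2.26, and Csf2 falls short in tag 4 alone.

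H2-DMa and Cd74 were at lower levels in class II-low cells with no H2-Aa or H2-Eb1 molecule than in those with some. The split uses the genes of the rule, and its values are a description. H2-DMa was at 198, 134 and 182 CPM in cells with none in tags 3, 1 and 2, and at 720, 349 and 408 CPM in cells with some. Cd74 was at 0, 6.55 and 26.1 CPM in cells with none, and at 164, 155 and 187.8 CPM in cells with some in the same tags. H2-Ab1 was near the limit of detection in both, at 0, 3.28 and 0 CPM in cells with none and 4.96, 4.02 and 0 CPM in cells with some. H2-K1 was at 78170 and 79570 CPM in cells with none of tags 1 and 2, and at 95800 and 115500 CPM in cells with some. In tag 3 the order of H2-K1 was the reverse, at 136100 CPM in 16 cells with none and 121100 CPM in 60 cells with some. Cells with none were shallower, with medians of 1061.5, 2878 and 2448 molecules in tags 3, 1 and 2, against 2615, 4041.5 and 3335 in cells with some, and the part of depth was not tested.

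The remaining gene lists are described by the genes measured in the pool contrast and past its rule, beside 6.45% higher, 14.3% lower and a median log2 ratio of -0.25 for all 217 genes. The matrix, galectin and lamin list had 0 higher and 0 lower of 10, with a median log2 ratio of -0.19. The class II list had 3 higher of 4 (median 1.35), 2 of them rule genes. The interferon and class I list had 2 higher (Irf7 and Cxcl9) and 0 lower of 11 (median 0.06). CXCR2 ligands and colony-stimulating factors had 0 higher and 2 lower (Cxcl2 and Csf1) of 7, with a median of -1.06. Other chemokines had 0 higher and 1 lower (Ccl3) of 6 (median -0.65). The calls of Csf1 and Ccl3 were lost under TMM scaling and without the cells with leukocyte genes. Immune ligands and ectoenzymes had 1 higher (Tnfrsf9) and 0 lower of 8 (median 0.01), with PD-L1 (Cd274) at 393 and 462 CPM in tags 3 and 4, against 461 and 361 CPM in tags 1 and 2. CD73 (Nt5e), which makes adenosine, stood at 3794 and 3559 CPM in tags 3 and 4, against 3859 and 3690 CPM in tags 1 and 2. Stress, iron and hypoxia genes had 1 higher (Fth1) and 2 lower (Hif1a and Dusp2) of 10 (median -0.06). The 2 NF-kappaB genes had no call (median -0.29). Proteases, adhesion and receptor genes had 0 higher and 2 lower (Nrp1 and Gata3) of 7 (median -0.65). Of the calls in these lists, those of Cxcl9 and Tnfrsf9 were each lost under 7 alternatives, Dusp2 under 6 and Fth1 under 5. Means over cells were among these alternatives for all 4 genes. The call of Tnfrsf9 was also lost without the cells with leukocyte genes. Those of Cxcl2, Hif1a and Gata3 were lost under 2, 1 and 1 alternatives. The epithelial list could not be compared between the pools in all tags, as its 3 genes were not counted in tag 1.

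In the 35 measured genes counted in tags 2 to 4 alone, tags 3 and 4 could be set against tag 2 only. Past 1.5-fold from tag 2 in both tags were 5 higher genes (14.3%), Cd68, Gbp6, Ifit2, Ifit3 and Nos2, and 6 lower genes (17.1%), Ccrl2, Cxcl3, Olfm1, Ptgs1, S100a4 and Slfn1. Ifit3, an interferon-induced gene, stood at 521 and 331 CPM in tags 3 and 4, against 15.1 CPM in tag 2, with 57.2% of its molecules from 1 cell. Nos2, inducible nitric oxide synthase, stood at 816 and 1064 CPM in tags 3 and 4, against 371 CPM in tag 2. S100a4, a calcium-binding protein of motile cells, stood at 24410 and 20550 CPM in tags 3 and 4, against 53530 CPM in tag 2.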

How the data were processed

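Cells were profiled on the targeted mouse immune response panel of BD Rhapsody. The deposited values are counts of molecules for each cell and target, after error correction, from version 1.12.1 of the BD Rhapsody Targeted Analysis Pipeline, per the file headers. The submitters' processing notes name Seurat 3.2.0. The aligner is not given in the sources used here, nor is the build. The table of tag 1 had another counting reference (397 targets for 396 genes, 2 Tigit targets summed) than tags 2 to 4 (468 genes). The 396 shared genes gave all totals and CPM.

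Molecules were summed per tag over the class II-low cells, and a pool's value weights its 2 tags equally. Genes with 30 or more molecules were counted as measured and called by the 1.5-fold rules given in the report, with a tag at 0 set to a floor of 3 counts. Shares carry exact Clopper-Pearson and sums exact Poisson intervals. Doublets were not called or removed. As a guard, the 5% of cells with most molecules were left out in an alternative. The calling rules were tested on simulated counts with set changes above the 1.5-fold limit and with counting error alone. The simulated counts had no spread between cells or cartridges, so they do not show how often such spread gives a call. Members, gene lists and rules were chosen with earlier results of these data known. Named genes were the 5 markers, the 10 largest calls per direction, the 20 most abundant genes, and the called or 4 most abundant members of each list. Others were named after their values were seen. The values of 1 gene that the rule names are not reported here, and the counts include it. Python 3.11.15, numpy 2.4.6, pandas 2.3.3, scipy 1.17.1, R 4.3.3 and edgeR 4.0.16 (TMM scaling alone) were used.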

Additional observations from a re-analysis of the deposited data

Results flagged for a closer look

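With tags at 0 set to the floor, 36 of 229 genes measured in all tags (15.7%) had class ratios of opposite sign in the 2 pools. On the same values 5 of these were past 1.5-fold in each tag (Blnk, Cxcl2, Ighm, Il7r and Runx3). Blnk and Il7r had 0 molecules in both classes of tag 4, so their ratios there come from the floor alone. Ighm was at 0 in class II-low and at 6.18 CPM in class II-high cells of tag 4, against the sign that the floor gave. Cxcl2, the CXCR2 ligand, is given in full because it was also called between the pools. In tags 3 and 4 it was lower in class II-low cells than in class II-high cells, at 940 and 942 CPM against 1962 and 1732 CPM. In tags 1 and 2 it was higher in class II-low cells, at 3880 and 2033 CPM against 1853 and 916 CPM. The mean log2 ratio of class II-low over class II-high was lower by 2.08 in the anti-PD-1 pool, a difference of -2.08 that was not tested. One cell gave 15.8% of the Cxcl2 molecules of class II-low cells. The call of Cxcl2 between the pools was lost with Lgals1 of at least 3% and with a class II limit of 2%.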

How the results depend on the processing

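No paired analysis was possible because each group is 1 sample. The share of class II-low cells among all cells stayed lower in the anti-PD-1 pool under the alternatives run. The ratio of 0.298 moved to 0.0552 for cells with no class II molecule and to 0.476 for a limit of 2%, and lay between 0.193 and 0.499 when each tag was left out. The ratio of 0.41 among tumour cells moved to 0.097 and 0.608 under the same 2 limits, and lay between 0.334 and 0.485 without each tag. Higher genes numbered 5 at a fold of 2 and 20 to 29 without each tag (22 without tag 1, 29 without tag 4). Lower genes numbered 12 at a fold of 2 and 38 to 55 without each tag (55 without tag 2 or 3, 52 without tag 4). Requiring no class II molecule left 1 cell in tag 4, so no gene counts could be made.

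Against class II-high cells, 1 gene was higher with Lgals1 of at least 10%, S100a8 below 1%, a class II limit of 2%, at least 500 molecules or means over cells, and 4 with Lgals1 of at least 3%. Leaving out each tag gave 0 to 2 higher and 8 to 13 lower genes (13 without tag 1). Lower genes numbered 5 without Lgals1, S100a8, S100a9 and Fth1 in the total and 5 at a fold of 2. With Lgals1 of at least 3% the log2 ratio between the pools was 0.73 for Bcl2a1a and 0.12 for Fcgr3, and with at least 10% it was 0.02 for Eomes, all 3 reversed. The causes were not tested. TMM scaling moved the median of all genes to -0.08 and gave 16 higher and 23 lower genes. Past the rule in each alternative that measured them were 8 of 45 genes between the pools (Fscn1, H2-Aa, H2-DMa, H2-Eb1, Il1rn, Irf7, Nrp1, Tmem97) and 4 of 8 between the classes (Cd74, H2-Ab1, H2-DMa, Il12rb1). H2-Aa and H2-Eb1 are genes of the rule, so their calls are a description. H2-DMa is not independent of the rule in either comparison. Depth limits the genes of tags 4 and 2, which rest on 35 and 54 cells.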
